A study of Mus musculus with 23 samples.

Results

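The comparison was between lymph node metastases and primary melanomas that share a title number, in mice of the HPN strain (Nme1+/- / Nme2+/-), and it asked which genes differed in the same direction in every pair. Title numbers 3, 4, 5, 6 and 7 have both tissues, which gave 11 of the 23 libraries of the series: 6 node libraries and 5 primary libraries. All of them carry the same Nme1+/- / Nme2+/- genotype, so Nme dose does not differ between the groups, and the series title gives ultraviolet light as the inducer of the tumours. The labels give no age, no sampling time and no further allele for these mice, and they do not spell out the letters HP. The nodes are labelled brachial (numbers 3 and 4), lymph with no further name (number 5), cervical (numbers 6 and 7a) and inguinal (7b). Node libraries 7a and 7b share number 7 and were summed, which left 5 nodes and 5 primaries in 5 pairs.

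Melanoma spreads from the skin by lymphatic vessels to the nodes that drain it, where tumour cells grow among lymphocytes, stroma and vessels of the node. A lymph node holds follicles of B cells, a zone of T cells, antibody-secreting plasma cells, dendritic cells, macrophages that line the sinuses, and high endothelial venules through which lymphocytes enter from blood. A primary melanoma of the skin lies beside keratinocytes, hair follicles, fibroblasts and, at its base, skeletal muscle of the panniculus. RNA of such pieces holds all of these cells at once, and in bulk RNA fewer cells of a type and less RNA per cell cannot be told apart.

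Counts in genes, in units of 1e6, were 18.9 to 37.6 per node library and 20.4 to 58.1 per primary library. Reads placed outside genes made up 21.2 to 49.3% of the entries in node libraries and 13.6 to 21.9% in primary libraries, with each node library above the primary of its number, and the part of this difference in the results below was not tested. Pigmentation genes were read in every piece, with a summed level of 6202 to 53040 CPM (counts scaled to a library of 1e6) in the 5 nodes and 36880 to 75510 CPM in the 5 primaries. B cell genes, which mark lymph node tissue, had a summed level of 350 to 3367 CPM in nodes and 22.9 to 37.2 CPM in primaries. In a principal component analysis the first component held 57.1% of the variance and separated all 5 nodes from all 5 primaries, with node 4 nearest to the primaries.

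Both genes whose dose the strain carries reduced, Nme1 and Nme2, are kinases of nucleoside diphosphates. Loss of Nme1 has been linked to metastasis. Nme1 had 9.06, 8.83, 6.67, 9.03 and 8.46 CPM in nodes 3, 4, 5, 6 and 7, against 13.1, 8.59, 11.3, 11.04 and 13.1 CPM in the primaries of the same numbers. It was lower in the node of 4 pairs and higher by 0.04 on the log2 scale in pair 4, and the log2 difference of -0.44 ± 0.22 (SE) was not called (edgeR adjusted p = 0.237). Nme2 was listed at 0.119 to 0.296 CPM in nodes and 0.105 to 0.407 CPM in primaries, with a log2 difference of -0.36 ± 0.48 (SE, edgeR adjusted p = 0.638). In the reference annotation 48.9% of Nme2 and 12.5% of Nme1 exon bases are shared with Gm20390 on the same strand, and how such reads were counted is not stated.

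Among the genes that passed the test, more rose than fell in the nodes. In an edgeR quasi-likelihood fit with title number as a block, 1102 of 18629 genes were called at an adjusted p under 0.05, which is 5.92%. Of these, 867 were higher in nodes (4.65% of genes tested) and 235 were lower (1.26%). The median log2 difference, node minus primary, was 4.83 among the genes called higher and -2.23 among those called lower, while the median of all genes tested was -0.02, with 9102 fitted differences positive and 9527 negative. Unless another tool is named, rose, fell and called refer to this fit. Without the block, 1832 genes were called, 1306 higher and 526 lower, and 807 of the 1102 were among them. That fit tested 16456 genes by its own filter, which may have left out others of the 1102. The share of calls that were higher was 78.7%, and it was 71.3% without the block, 62.2% in DESeq2 and 61.4% in limma voom. It was 60.9% in limma with title number as a random block over all HPN primaries and nodes, called the random block below.

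A gene that moved the same way in all 5 pairs was common even without a call. Of the genes tested, 3186 (17.1%) were higher in the node of every pair and 1968 (10.6%) were lower in the node of every pair. Both called and higher in every pair were 860 genes (4.62%), and both called and lower in every pair were 192 (1.03%). In a stricter count with no test, 794 genes (4.26%) were higher by over log2 1 in every pair and 57 (0.306%) were lower by over log2 1 in every pair. All 5 nodes lay above all 5 primaries for 1494 genes (8.02%) and below them all for 480 genes (2.58%).

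**Figure D1:**
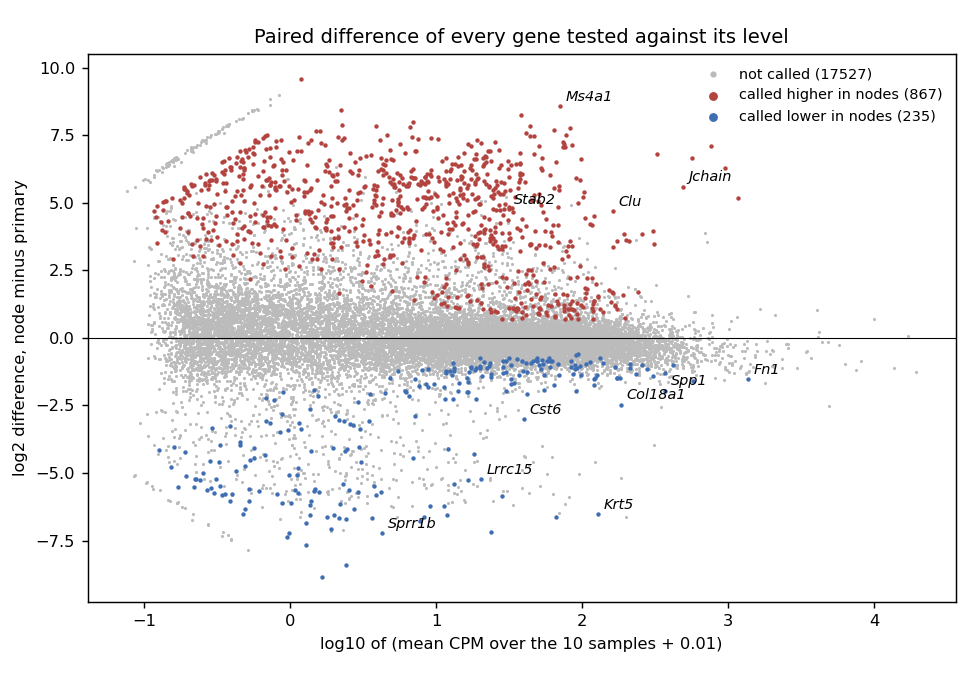
The log2 difference, node minus primary, of each of 18629 genes is drawn against the log10 of its mean CPM over the 10 samples (plus 0.01). The 867 genes called higher (red) reach down to low levels and up to a log2 difference above 8, and the 235 called lower (blue) include a cloud of moderate falls at high level, among them Spp1 and Fn1, and a cloud of large falls that holds Krt5 and Sprr1b.

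The number of calls moved strongly with single pairs. Leaving out a pair gave 168 calls without pair 6, 319 without pair 3, 413 without pair 5, 704 without pair 7 and 1830 without pair 4. Calls higher in nodes then ranged from 159 to 1487, and calls lower in nodes from 9 to 343. The share of calls that were higher was 94.6% without pair 6, 93.1% without pair 3 and 64.9% without pair 7. Genes called with all 5 pairs, in each of these 5 fits and with the same sign in each pair numbered 142, of which 137 were higher in nodes and 5 were lower. Of the 137, 23 are immunoglobulin or T cell receptor segments, 25 have no symbol and 27 belong to a gene list used here, 12 of them in the B cell list.

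**Figure D2:**
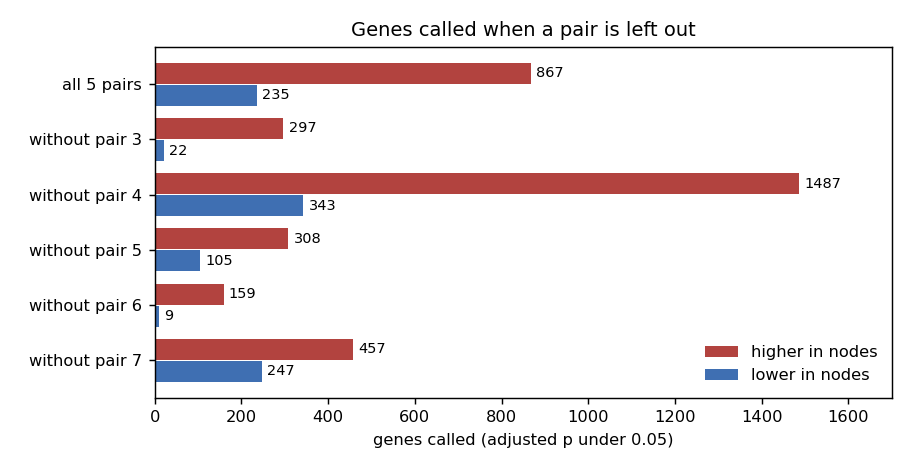
Bars give the number of genes called higher (red) and lower (blue) in nodes with all 5 pairs and with each pair left out. Calls fall to 159 and 9 without pair 6 and reach 1487 and 343 without pair 4.

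Of the 44 lists, B cell genes had the largest median rise. Of 14 B cell genes, 13 rose in nodes (background 4.65% of all genes), and all 14 were higher in the node of every pair with all nodes above all primaries. The list's median log2 difference was 7.38, and its medians were 6.81, 6.77, 7.82, 8.01 and 6.46 in pairs 3 to 7. For each list below, the background is likewise 4.65% of all genes called higher and 1.26% called lower in the paired edgeR fit. Other settings had their own backgrounds over all genes. DESeq2 called 2461 higher and 1497 lower of 18629, and voom 2073 and 1301 of 18629. Without the block 1306 were called higher and 526 lower of 16456, and with the random block 1972 and 1268 of 16509. At an unadjusted p under 0.05, 2984 of 18629 were higher and 2094 lower. Ms4a1, which encodes the B cell surface protein CD20, had 47.6, 26.6, 268, 212 and 152 CPM in nodes 3, 4, 5, 6 and 7, against 0.186, 0, 0.485, 0.395 and 0.912 CPM in the primaries of those numbers. Node 4 had the lowest level of the nodes and still lay far above the highest primary. The log2 difference of Ms4a1 was 8.58 ± 0.51 (SE, edgeR adjusted p = 0.00144).

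Pax5, the transcription factor that fixes B cell identity, rose by 8.26 ± 0.49 on the log2 scale (SE, edgeR adjusted p = 0.00144). Cd79a, a signalling chain of the B cell receptor, rose by 7.69 ± 0.36 (edgeR adjusted p = 0.000947). Fcmr, the receptor for the constant part of IgM, rose by 7.58 ± 0.31 (edgeR adjusted p = 0.000904). Fcer2a, the low-affinity IgE receptor CD23, and Cr2, the complement receptor CD21, rose by 7.84 and 7.52 on the log2 scale. Among the 10 largest rises by the naming rule were also Ifi214, a member of an interferon-inducible family, Nsg2, known from neurons, and Glycam1. Of these 10 genes all were called without pair 3, 4 or 7, while Ifi214 was lost without pair 5 and Ifi214 and Glycam1 without pair 6, where the highest edgeR adjusted p was 0.0765. Within the B cell list Cd22 was lost without pair 3, 5, 6 or 7, with edgeR adjusted p up to 0.15.

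**Figure D3:**
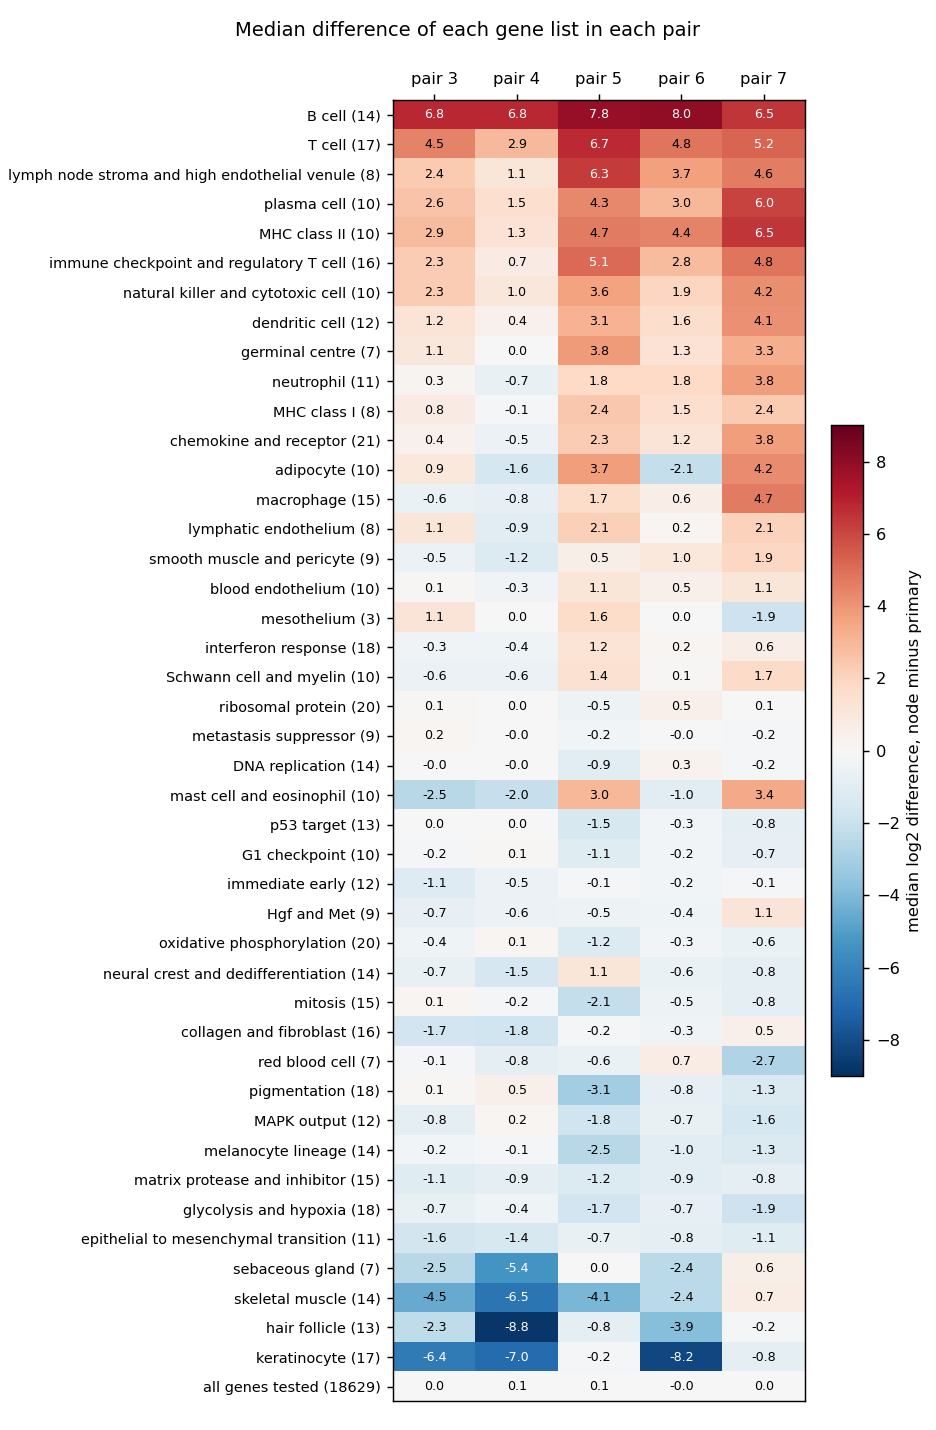
Each row is a gene list with its number of genes tested, and each cell is the list's median log2 difference, node minus primary, in a pair, on a scale from blue (lower in node) to red (higher in node). B cell genes are at 6.5 to 8.0 in every pair, keratinocyte genes are at -6.4, -7.0 and -8.2 in pairs 3, 4 and 6 and near 0 in pairs 5 and 7, and all genes tested are near 0.

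T cell genes came next in size. Of 17, 14 rose, and the list's median log2 difference was 4.99, with pair medians of 4.47, 2.90, 6.69, 4.84 and 5.25. Cd3d, a chain of the T cell receptor complex, had 17.9, 5.17, 42.6, 30.8 and 18.6 CPM in nodes 3 to 7, against 0.466, 0.205, 0.272, 0.712 and 0.254 CPM in the primaries. Every node lay above every primary, with node 4 lowest again. Its log2 difference was 5.78 ± 0.46 (SE, edgeR adjusted p = 0.00299). Cd8a and Cd8b1, the chains of the CD8 co-receptor of cytotoxic T cells, rose by 5.81 and 5.94 on the log2 scale, and Lck, a kinase at the receptor, by 4.92. Of the 14 T cell calls, 11 remained without pair 3, 13 without pair 5, 7 without pair 6 and 13 without pair 7, with edgeR adjusted p up to 0.126.

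Of 10 plasma cell genes 5 rose, among them Pou2af1, a co-activator of antibody genes, by 7.05 ± 0.49 on the log2 scale (SE, edgeR adjusted p = 0.00221). Jchain, which joins antibody units into polymers, had 366, 127, 988, 640.4 and 2693 CPM in nodes 3 to 7, against 13.5, 11.2, 8.54, 17.0 and 13.0 CPM in the primaries. Every node lay above every primary, with node 7 highest and node 4 lowest of the nodes. The log2 difference of Jchain was 5.60 ± 0.74 (SE, edgeR adjusted p = 0.0109). Mzb1, a chaperone of plasma cells, rose by 5.97 on the log2 scale, and 57.2% of its exon bases are shared with SPATA24 on the same strand. Of 7 germinal centre genes tested 2 rose, among them Gcsam, a signalling protein of germinal centre B cells, by 4.12 on the log2 scale. Without pair 3, 5, 6 or 7 neither germinal centre call remained, with edgeR adjusted p between 0.058 and 0.154, and the summed level of the list overlapped, at 70.8 to 135 CPM in nodes and 72.2 to 122 CPM in primaries. Of the 5 plasma cell calls 3 remained without pair 3 or 5, 4 without pair 7 and Pou2af1 alone without pair 6, with edgeR adjusted p up to 0.159.

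All 130 called immunoglobulin and T cell receptor segments were higher in nodes, with a median log2 difference of 5.98. Segments of this kind resemble each other closely, so the split of reads among them is uncertain. Of the 131 called identifiers with no symbol 130 were higher.

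Of 10 natural killer and cytotoxic genes 4 rose: Tbx21 and Eomes, transcription factors of effector lymphocytes, Klrd1, a receptor subunit, and Nkg7, a granule protein. Of 16 checkpoint and regulatory T cell genes 5 rose: Btla, Ctla4, Pdcd1 and Lag3, inhibitory receptors of lymphocytes, and Foxp3, the transcription factor of regulatory T cells. Btla, which B cells also express, had 161, 31.2, 318, 146 and 185 CPM in nodes 3 to 7, against 1.02, 0.556, 0.912, 1.26 and 1.24 CPM in the primaries. Its log2 difference was 7.15 ± 0.43 (SE, edgeR adjusted p = 0.00144), and it was the only checkpoint gene of the 5 called without each pair in turn. Ctla4 rose by 5.11 ± 0.85 (SE, edgeR adjusted p = 0.0225). Without pair 3, 5, 6 or 7 Ctla4, Foxp3, Pdcd1 and Lag3 were each lost, with edgeR adjusted p up to 0.157. None of the 4 cytotoxic calls remained without pair 3, 5 or 6, with edgeR adjusted p of 0.0573 to 0.161, and Klrd1 and Tbx21 remained without pair 7. Without the block 12 of the 16 checkpoint genes were called higher.

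Of 10 MHC class II genes 7 rose, and all 10 were higher in the node of every pair, with all nodes above all primaries. The summed level was 714 to 4908 CPM in nodes and 57.1 to 299 CPM in primaries. H2-Ob and H2-Oa, which modulate peptide loading and are known from B cells, rose by 7.19 ± 0.31 and 6.44 ± 0.36 on the log2 scale (SE, edgeR adjusted p = 0.000904 and 0.00109). Ciita, the master regulator of class II, had 123, 40.5, 392, 239.9 and 202 CPM in nodes 3 to 7, against 4.89, 5.96, 5.08, 5.30 and 2.15 CPM in the primaries. In the reference annotation 22.8% of H2-Oa exon bases are shared with a gene on the opposite strand. Ciita was lost without pair 6, and H2-Aa, H2-DMa and H2-Eb1 without pair 3, 5, 6 or 7, with edgeR adjusted p up to 0.176. None of 8 MHC class I and antigen-processing genes was called in edgeR, with a median of 1.39 on the log2 scale. Of these 8, 5 had an unadjusted p under 0.05, all higher, and 5 were called higher in DESeq2 and in voom.

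Dendritic cell genes rose in 5 of 12: Xcr1 and Clec9a, receptors of cross-presenting dendritic cells, Siglech, of plasmacytoid cells, and Flt3 and Zbtb46, which mark the lineage. Xcr1 rose by 4.40 ± 0.56 on the log2 scale (SE, edgeR adjusted p = 0.00908), and it was the only one of the 5 called without pair 5. Clec9a and Xcr1 remained without pair 3 or 7, and none of the 5 without pair 6, with edgeR adjusted p of 0.0642 to 0.153. Macrophage genes as a list did not move evenly. Of 15, Marco, a scavenger receptor of node and marginal-zone macrophages, was the one called in the paired edgeR fit (background 4.65% of all genes higher). DESeq2, voom and edgeR without the block each called 2 higher and the random block 4. The list's pair medians were -0.63, -0.75, 1.66, 0.63 and 4.71, and its summed level was 1683 to 4633 CPM in nodes and 206 to 3089 CPM in primaries, with the primary of number 7 the lowest. Marco had 8.47, 0.409, 41.5, 3.85 and 106 CPM in nodes 3 to 7, against 0.279, 0.0877, 0.349, 0.211 and 0.659 CPM in the primaries. Node 4 lay below the primary of number 7, so the groups overlapped, and Marco was lost without pair 3, 5 or 6, with edgeR adjusted p of 0.0623 to 0.0734. None of 11 neutrophil genes and none of 10 mast cell and eosinophil genes was called in edgeR. At an unadjusted p under 0.05, 1 neutrophil gene and 2 mast cell or eosinophil genes were higher, and DESeq2 called 3 and 1 higher.

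Of 8 genes of node stroma and high endothelial venules 3 rose. Glycam1, a ligand of L-selectin on high endothelial venules, had 4.29, 2.25, 139.7, 81.1 and 23.6 CPM in nodes 3 to 7, against 0.0931, 0.175, 0.213, 0.211 and 0.177 CPM in the primaries. Cxcl13, the chemokine that draws B cells into follicles, had 18.9, 9.94, 108, 139 and 228 CPM in nodes 3 to 7, against 0.186, 1.67, 0.369, 0.395 and 0.811 CPM in the primaries. Nodes 3 and 4 were low for both genes and nodes 5, 6 and 7 high. Cxcl13 rose by 7.09 ± 1.11 on the log2 scale (SE, edgeR adjusted p = 0.0188) and Il7, a lymphocyte survival factor, by 3.93 ± 0.76 (edgeR adjusted p = 0.0347). Both were lost without pair 3, 5, 6 or 7, with edgeR adjusted p of up to 0.15.

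Of 8 lymphatic endothelium genes Stab2, a hyaluronan receptor of lymphatic sinuses, was the one called (background 4.65% of all genes higher). It had 45.1, 9.88, 96.7, 57.9 and 93.2 CPM in nodes 3 to 7, against 1.77, 0.936, 3.10, 3.35 and 0.760 CPM in the primaries. Every node exceeded every primary, and the log2 difference was 4.77 ± 0.54 (SE, edgeR adjusted p = 0.00721). Its call held without each pair, with edgeR adjusted p of 0.00479 to 0.0485. The general lymphatic genes Prox1 and Lyve1 were not called, at log2 differences of 1.07 ± 0.37 and 1.2 ± 0.53 (SE). None of 10 blood endothelium genes was called in edgeR, with a median of 0.35, while 2 were higher at an unadjusted p under 0.05 and in DESeq2 and voom. Rgs5, a marker of pericytes, had 87.3, 91.0, 190, 227 and 236 CPM in nodes 3 to 7, against 41.7, 46.7, 22.7, 65.0 and 45.4 CPM in the primaries. It rose by 1.85 ± 0.35 on the log2 scale (SE, edgeR adjusted p = 0.032). Rgs5 was the one call among 9 smooth muscle and pericyte genes in the paired edgeR fit (background 4.65% of all genes higher). DESeq2 called 1 of the 9 higher and 2 lower, and voom 1 higher and 1 lower. Without pair 3, 5, 6 or 7 Rgs5 was not called, with edgeR adjusted p of 0.0698 to 0.143.

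Chemokine receptors of lymphocytes were among the calls. Of 21 chemokine and receptor genes 4 rose: Ccr6, a receptor of B and T cells, Ccr10, a receptor of plasma cells and skin-homing T cells, Cx3cr1, of macrophages and cytotoxic cells, and Ccl5, a chemokine of T cells. Ccr6 rose by 7.18 ± 0.43 and Ccr10 by 4.12 ± 0.47 on the log2 scale (SE, edgeR adjusted p = 0.00144 and 0.00688), and both were called without each pair in turn. Cx3cr1 was lost without pair 3, 5 or 6 and Ccl5 without pair 3, 5, 6 or 7, with edgeR adjusted p up to 0.178. No gene of 18 in the interferon response was called in edgeR, and their median was 0.21. At an unadjusted p under 0.05, 1 was higher and 2 were lower, DESeq2 called 1 higher and 2 lower, and voom called 1 lower.

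Genes in no list and read in both tissues gave another view of the rises. Of 150 such genes that were called and higher in every pair, with a mean of at least 5 CPM in both tissues, the 10 largest rises were those of Clu, Atp2a3, Apobec3, Ikzf1, Vcam1, Gimap6, Cytip, Il16, Coro1a and Bcl11a. Clu, the secreted chaperone clusterin, had 117, 63.8, 323, 474 and 585 CPM in nodes 3 to 7, against 8.47, 38.9, 3.32, 16.2 and 6.94 CPM in the primaries. Pair 4 had the smallest difference, 0.71 on the log2 scale, and the fitted difference was 4.68 ± 1.02 (SE, edgeR adjusted p = 0.0494). Ikzf1, the lymphocyte transcription factor Ikaros, rose by 4.20 ± 0.68, and Coro1a, an actin-binding protein of leukocytes, by 3.83 ± 0.59 (SE, edgeR adjusted p = 0.0209 and 0.0179). Vcam1, an adhesion molecule, rose by 4.19 and Apobec3, an antiviral deaminase, by 4.45 on the log2 scale. None of the 10 was called without pair 3 or 6, with edgeR adjusted p up to 0.185, Gimap6 alone without pair 5, and 5 of the 10 without pair 7. B cell genes, at 350 to 3367 CPM summed in nodes and 22.9 to 37.2 CPM in primaries, moved with these genes, and their part in the rises was not tested.

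**Figure D4:**
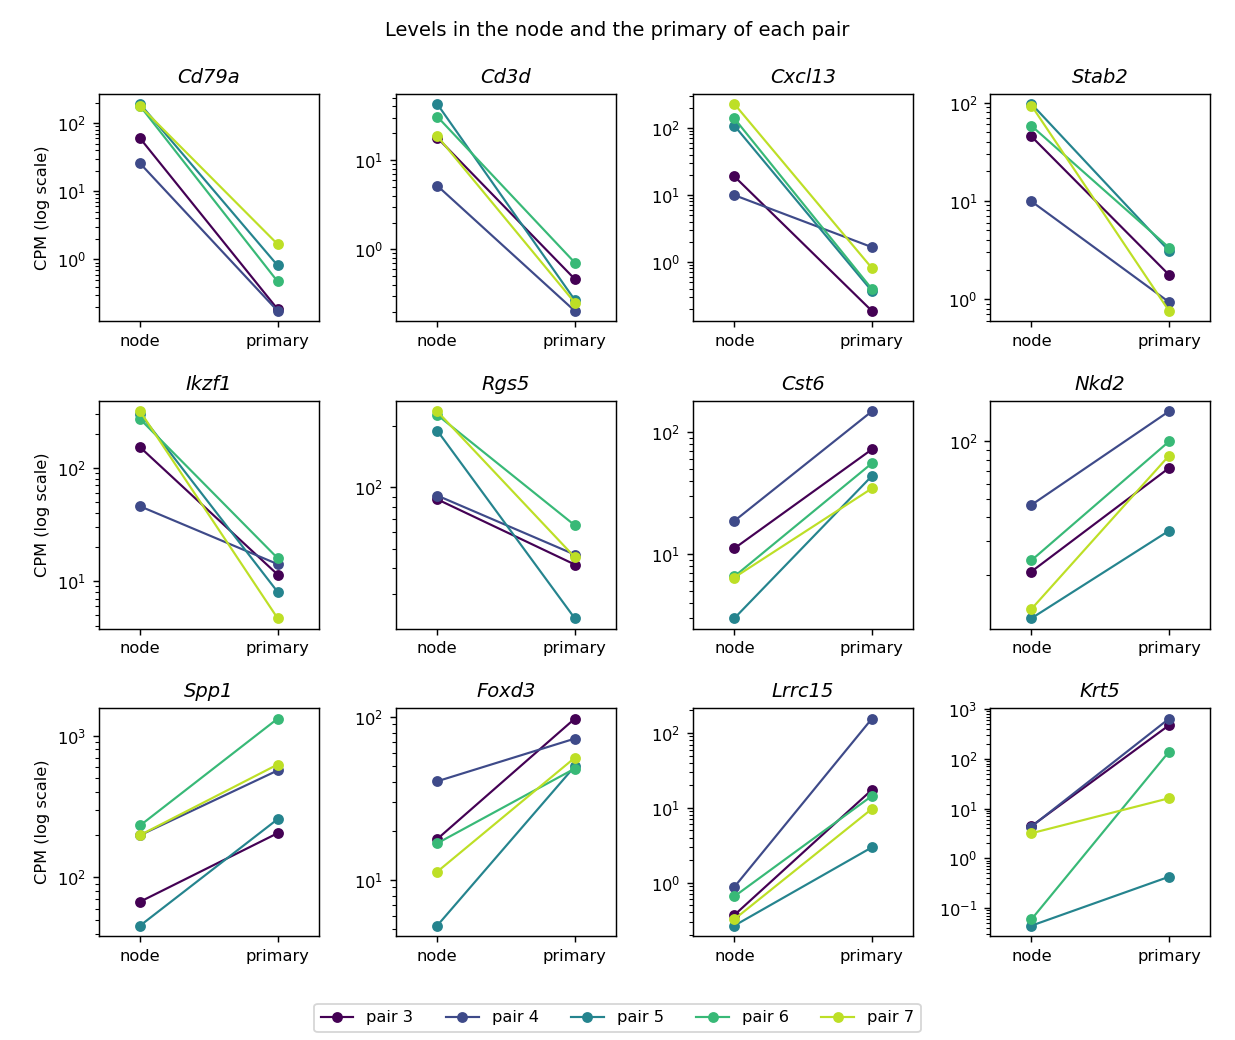
For 12 genes, dots give the CPM (log scale) in the node (left) and the primary (right) of each pair, joined by a line per pair. Cd79a, Cd3d, Cxcl13, Stab2, Ikzf1 and Rgs5 slope down from node to primary in all 5 pairs, and Cst6, Nkd2, Spp1, Foxd3, Lrrc15 and Krt5 slope up in all 5 pairs, with Krt5 ranging widely among the primaries.

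Melanocyte genes were not called in either direction in edgeR. None of 18 pigmentation genes was called, 17 of 18 had a negative fitted difference, and the list's pair medians were 0.08, 0.46, -3.10, -0.76 and -1.32. Melanocyte lineage genes likewise had 0 calls among 14, with pair medians of -0.24, -0.11, -2.52, -0.98 and -1.30. Sox10, a transcription factor of the lineage, had 303, 549.6, 58.0, 225 and 138 CPM in nodes 3 to 7, against 404, 619, 817, 429.8 and 568 CPM in the primaries. It was lower in the node of every pair, but the log2 difference of -1.41 ± 0.57 was not called (SE, edgeR adjusted p = 0.174). Mlana, a melanosome protein, was at 181, 447, 41.7, 323 and 242 CPM in nodes 3 to 7 and 327, 682, 481, 623 and 362 CPM in the primaries. In both genes node 5 was lowest, and B cell genes were highest in that node, at 3367 CPM summed. At an unadjusted p under 0.05, 2 pigmentation genes and 5 lineage genes were lower, DESeq2 called 1 and 4 lower, and voom called 1 and 2 lower.

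The largest falls were those of epidermal and muscle genes. The 10 largest by the naming rule were Sprr1b, Sprr1a, Cnfn, Ovol1, Krt16, Dlx3, Xirp2, Krt5, Crct1 and Myh1. Sprr1a and Sprr1b are small proline-rich proteins of the cornified envelope, Krt5 and Krt16 are keratins, and Xirp2 and Myh1 are proteins of striated muscle. The levels of Krt5 and Myh1 differed widely among the primaries. Krt5 had 4.44, 4.36, 0.0445, 0.0596 and 3.19 CPM in nodes 3 to 7, against 472, 639, 0.427, 139 and 16.1 CPM in the primaries. Primaries 3, 4, 6 and 7 lay above every node, and primary 5 lay below nodes 3, 4 and 7. The log2 difference of Krt5 was -6.53 ± 1.36 (SE, edgeR adjusted p = 0.043). Myh1, a myosin of fast skeletal muscle, had 1.22, 0.351, 0.311, 0.447 and 0.149 CPM in nodes 3 to 7, against 160.0, 56.1, 10.7, 53.01 and 0.254 CPM in the primaries, and primary 7 lay within the range of the nodes. None of the 10 was called without pair 3 or 6 (edgeR adjusted p of 0.0595 to 0.169), Sprr1b alone without pair 5, and 6 of the 10 without pair 4. With the random block Cnfn, Krt16, Xirp2, Krt5, Crct1, Myh1 and Sprr1a were also not called, with limma adjusted p of 0.132 to 0.282. That fit tested 16509 genes by its own filter, which may have left out others of the 10.

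Sprr1b had 0.0370, 0.0585, 0, 0 and 0.0541 CPM in nodes 3 to 7, against 9.73, 24.4, 0.0388, 7.25 and 0.862 CPM in the primaries, and primary 5 lay among the nodes. Its log2 difference was -7.23 ± 1.06, and that of Sprr1a was -7.20 ± 1.19 (SE, edgeR adjusted p = 0.0149 and 0.0213). Because these neighbouring genes moved together, their promoters are shown, from 250 bases before to 50 after the start site (RefSeq, GRCm38.p6, minus strand, chr3:92438730-92439029 for Sprr1b and chr3:92485832-92486131 for Sprr1a). The capitals mark TGANTCA, the form of the AP-1 motif searched here, which reads the same on both strands. Its N stands for any base.

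Sprr1b: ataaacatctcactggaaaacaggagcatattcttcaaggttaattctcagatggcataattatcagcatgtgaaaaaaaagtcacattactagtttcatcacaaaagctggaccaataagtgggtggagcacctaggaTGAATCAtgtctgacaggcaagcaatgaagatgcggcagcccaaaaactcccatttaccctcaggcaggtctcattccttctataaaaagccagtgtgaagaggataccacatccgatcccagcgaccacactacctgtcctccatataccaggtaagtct

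Sprr1a: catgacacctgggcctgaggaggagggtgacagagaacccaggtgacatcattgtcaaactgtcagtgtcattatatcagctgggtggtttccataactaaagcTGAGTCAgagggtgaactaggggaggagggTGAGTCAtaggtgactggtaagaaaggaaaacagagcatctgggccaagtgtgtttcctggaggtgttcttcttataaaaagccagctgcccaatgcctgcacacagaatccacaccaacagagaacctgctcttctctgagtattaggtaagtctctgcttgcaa

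The motif began at -111 in Sprr1b and at -146 and -116 in Sprr1a. Its free base was A in Sprr1b, G at each site of Sprr1a, T in Myh1 and C in Xirp2. Of the 10 largest falls 6 had a promoter in the table and 4 of these held the motif (Myh1, Sprr1a, Sprr1b and Xirp2), against 8.97% of all genes in the table and 7.09% of genes tested. It was in 1 of 8 promoters of the 10 largest rises and in 1 of 8 of the 10 largest falls in no list (Arfgef3). It was searched together with the octamer ATTTGCAT, on both strands, which was in 0 of 8 promoters of the largest rises and in 1.97% of all genes in the table. A match describes the letters in this window only.

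As lists, 2 of 17 keratinocyte genes fell, Krt5 and Dsg3 (background 1.26% of all genes), while DESeq2 and voom each called 16 lower and edgeR without the block 15. With the random block 0 were called, with limma adjusted p of 0.194 for Krt5 and 0.203 for Dsg3. The keratinocyte pair medians were -6.39, -6.96, -0.18, -8.20 and -0.81, and the summed level was 19.9 to 50.1 CPM in nodes, against 3941, 5094, 11.3, 1473 and 106 CPM in primaries 3 to 7. Of 13 hair follicle genes 2 were called lower, Msx2 and Krt32. Krt32 had 2 counts in all nodes together, at most 0.0370 CPM in a node, and 23.4 CPM in primary 4 with at most 0.279 CPM in another primary. Msx2 likewise reached 20.9 CPM in primary 4 and at most 0.448 CPM in another primary, and neither passed the filter without pair 4. Of 14 skeletal muscle genes Myh1, Ckm and Actn3 fell, and the pair medians of the list were -4.53, -6.54, -4.12, -2.40 and 0.68. The 2 keratinocyte calls were lost without pair 3, 4, 5 or 6 (edgeR adjusted p of 0.0649 to 0.173). The 3 muscle calls were lost without pair 3, 5 or 6 (edgeR adjusted p of 0.0898 to 0.178), and Myh1 alone remained without pair 4. DESeq2 and voom each called 11 muscle genes lower, edgeR without the block 8 and the random block 0, with limma adjusted p of 0.0979 to 0.203 for the 3. All 13 hair follicle genes had a negative fitted difference, with a median of -4.59. DESeq2 called 9 of them lower, voom 13 and edgeR without the block 3. The random block called 0 hair follicle genes, and its own filter on low counts may have left some of them out. None of 7 sebaceous and none of 10 adipocyte genes was called in edgeR, while DESeq2 called 4 sebaceous genes lower and 2 adipocyte genes higher, and an unadjusted p was under 0.05 for 4 sebaceous genes, lower, and 1 adipocyte gene, higher.

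A smaller set of falls was called whichever pair was left out in edgeR. These were 5 genes, Abca12, Cst6, Klf5, Ppp1r13l and Nkd2, of which Cst6 and Nkd2 were named by rule and the others after their values were seen. Abca12 was not called with the random block (limma adjusted p = 0.068), and the other 4 were. Cst6, an inhibitor of cysteine proteases, had 11.1, 18.7, 2.98, 6.56 and 6.43 CPM in nodes 3 to 7, against 72.0, 148, 43.6, 55.4 and 34.5 CPM in the primaries. All nodes lay below all primaries, and the pair differences were -2.69, -2.98, -3.85, -3.07 and -2.41 on the log2 scale. Its fitted difference was -3.0 ± 0.24 (SE, edgeR adjusted p = 0.00299). In pair 5, where the difference of Cst6 was -3.85, the median was -0.18 for keratinocyte genes and -2.92 for melanocyte genes.

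Nkd2, an inhibitor of Wnt signalling that binds Dishevelled, had 20.9, 46.5, 11.96, 23.9 and 13.4 CPM in nodes 3 to 7, against 72.3, 142, 34.1, 99.4 and 83.8 CPM in the primaries. It was lower in every pair by 1.51 to 2.64 on the log2 scale, while node 4 exceeded primary 5, so the groups overlapped. The fitted difference was -1.92 ± 0.21 (SE, edgeR adjusted p = 0.00594). Ppp1r13l, an inhibitor of p53 family proteins, had 3.59, 7.22, 2.27, 3.10 and 3.76 CPM in nodes 3 to 7, against 19.9, 54.3, 11.5, 9.62 and 14.9 CPM in the primaries, with no overlap and a difference of -2.27 ± 0.25 (SE, edgeR adjusted p = 0.00607). Klf5, a transcription factor of epithelia, fell by 2.89 ± 0.36 on the log2 scale, with all nodes below all primaries (SE, edgeR adjusted p = 0.00844). Abca12, a lipid transporter of the epidermis, had 4.73, 1.99, 0.178, 0.358 and 0.880 CPM in nodes 3 to 7, against 32.2, 44.9, 4.09, 22.4 and 8.14 CPM in the primaries. Node 3 lay above primary 5, and the difference was -4.11 ± 0.53 (SE, edgeR adjusted p = 0.01). Keratinocytes are known to express Abca12 and Klf5. On a scale shared by all libraries, Krt5 was highest among the HPN primaries in 1 and 4, at 1893 and 633 CPM. Cst6, at 429 and 146 CPM, and Ppp1r13l, at 78.6 and 53.8 CPM, were highest in the same primaries. So were Abca12, Klf5 and Nkd2. The order of the other primaries was not shared by all these genes. HPN primary 2 had 14.05 CPM of Krt5, 75.5 CPM of Cst6 and 106 CPM of Nkd2. HPN primary 3 had 468 CPM of Krt5, 71.4 CPM of Cst6 and 71.7 CPM of Nkd2. Abca12, Klf5 and Ppp1r13l were higher in HPN primary 3 than in HPN primary 2. The summed keratinocyte level, given above, was higher in primaries 3, 4, 6 and 7 than in the nodes and lower in primary 5 than in node 5, and its part in these falls was not tested.

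**Figure D5:**
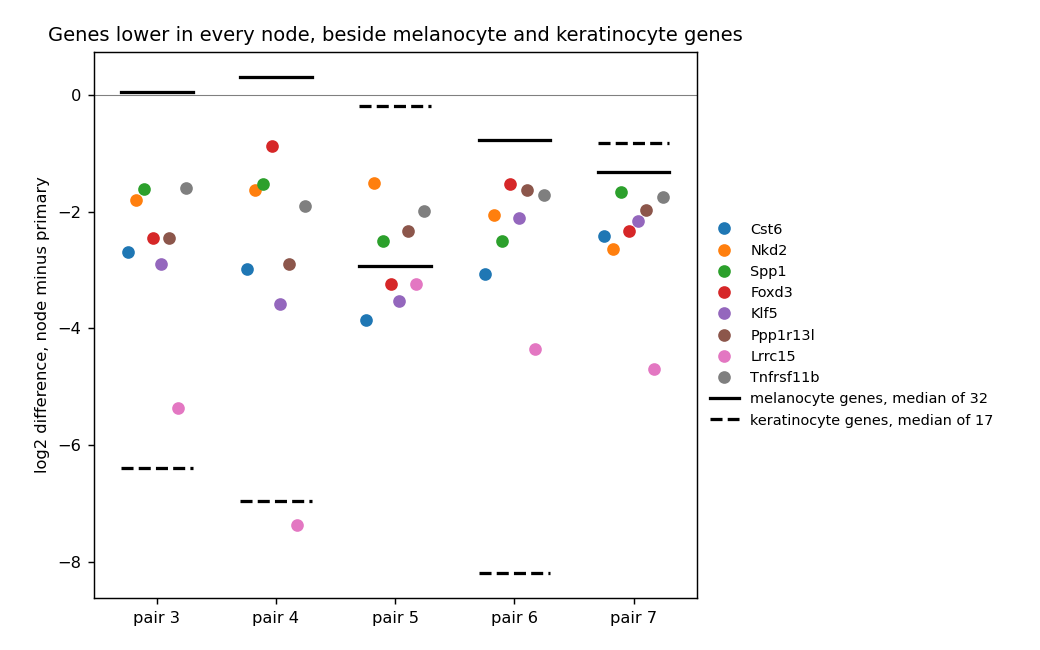
Dots give the log2 difference, node minus primary, of 8 genes in each pair, beside the median of 32 melanocyte genes (solid bars) and of 17 keratinocyte genes (dashed bars). All 8 genes lie below 0 in every pair. Melanocyte genes are near 0 in pairs 3 and 4 and at -2.92 in pair 5, whereas keratinocyte genes are far below 0 in pairs 3, 4 and 6 only.

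Genes in no list and read at 5 CPM or more in both tissues included 94 called and lower in every pair. After Cst6, at -3.0, the largest falls were those of Col18a1 at -2.48, Aldh1l2 at -2.25, Foxd3 at -2.08, Arfgef3 at -2.02, Fam178b at -1.98, Spp1 at -1.96, Pcdh20 at -1.95, Fstl4 at -1.95 and Nkd2 at -1.92 on the log2 scale. Spp1, the secreted matrix protein osteopontin, had 67.3, 198, 45.6, 232 and 199 CPM in nodes 3 to 7, against 205, 569, 258, 1319 and 626 CPM in the primaries. It was lower by 1.52 to 2.5 on the log2 scale in each pair, although node 6 lay above primary 3, with a fitted difference of -1.96 ± 0.24 (SE, edgeR adjusted p = 0.00844). In the reference annotation 18.8% of its exon bases are shared with Gm42793. Foxd3, a transcription factor of the neural crest, had 17.8, 40.3, 5.25, 16.8 and 11.2 CPM in nodes 3 to 7, against 97.5, 73.6, 49.7, 48.2 and 56.1 CPM in the primaries, with no overlap. Its difference was -2.08 ± 0.36 (SE, edgeR adjusted p = 0.0246). Col18a1, the collagen that yields endostatin, had 48.9, 65.2, 22.2, 49.9 and 47.7 CPM in nodes 3 to 7, against 368, 492, 38.4, 275 and 431 CPM in the primaries, and primary 5 lay among the nodes. Of these 10, 5 were called without pair 3, 5 without pair 5, 7 without pair 7 and, without pair 6, Cst6 and Nkd2 only, with edgeR adjusted p up to 0.161. Spp1, Arfgef3 and Fstl4 were not called with the random block (limma adjusted p = 0.181, 0.0954 and 0.0808), nor Pcdh20 and Fstl4 without the block (edgeR adjusted p = 0.0565 and 0.193).

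Some genes were below the median of the melanocyte genes in each pair. The median of 32 melanocyte genes was 0.06, 0.32, -2.92, -0.77 and -1.32 in pairs 3 to 7. Lower than this median in all 5 pairs were 65 genes (0.349% of genes tested), of which 12 were called lower (0.0644%): Lrrc15, Abca12, Klhl40, Atp10b, Stac, Cst6, Klf5, Aldh1l2, 9030624G23Rik, Moxd1, Foxd3 and Fstl4. They are 5.1% of the 235 genes called lower. Lrrc15, a membrane protein known from activated fibroblasts, had 0.370, 0.877, 0.267, 0.656 and 0.325 CPM in nodes 3 to 7, against 17.4, 155, 2.97, 14.4 and 9.68 CPM in the primaries. All nodes lay below all primaries, and its difference was -5.22 ± 0.61 (SE, edgeR adjusted p = 0.00806). Atp10b, a phospholipid-transporting ATPase, fell by 3.23 on the log2 scale with no overlap and at most 9.63 CPM in a primary. Lrrc15, Klhl40, Atp10b, Stac, 9030624G23Rik and Moxd1 were named after their values were seen, and Lrrc15, Atp10b and Stac were lost without pair 6 alone, Moxd1 without pair 3 or 6, Klhl40 without pair 3, 5 or 6, and 9030624G23Rik without pair 3, 5, 6 or 7. Tnfrsf11b, the decoy receptor osteoprotegerin, and Bmp1, which trims procollagen, were likewise picked afterwards for their even pair differences. Tnfrsf11b was lower by 1.59 to 1.99 and Bmp1 by 1.16 to 1.89 on the log2 scale, and both were lost without pair 6 alone among the pairs. Tnfrsf11b and Moxd1 were also not called without the block (edgeR adjusted p = 0.0607 and 0.058).

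Of 15 proteases and inhibitors 3 fell, among them Timp1 and Mmp13, and 10 were lower in the node of every pair, beside 10.6% of all genes tested. In DESeq2 and in voom 9 were called lower. The list's median fitted difference was -1.04, beside -0.85 for pigmentation and -1.03 for melanocyte lineage genes. Timp1, an inhibitor of metalloproteases, had 3.25, 5.55, 1.51, 4.89 and 5.13 CPM in nodes 3 to 7, against 13.1, 19.3, 9.37, 13.4 and 12.8 CPM in the primaries, with no overlap and a difference of -1.83 ± 0.27 (SE, edgeR adjusted p = 0.0153). Mmp13, a collagenase, fell by 5.41 ± 0.86 on the log2 scale (SE, edgeR adjusted p = 0.0193). All 3 were lost without pair 3 or 6, with edgeR adjusted p of 0.0633 to 0.118, and Mmp13 was not called with the random block (limma adjusted p = 0.0929). Of 16 collagen and fibroblast genes 1 fell (background 1.26% of all genes), Postn, the matrix protein periostin. It fell by 1.54 ± 0.26 (edgeR adjusted p = 0.0232). Postn was lost without pair 3 or 6 (edgeR adjusted p of 0.0712 and 0.126) and without the block (edgeR adjusted p = 0.055). Of the 16 genes 11 had a negative and 5 a positive fitted difference, and 6 were lower in every pair. DESeq2 called 6 of the 16 lower, voom 5, the random block 6 and edgeR without the block 2. Over all genes these settings called 1497, 1301, 1268 and 526 lower. The summed level of that list was 1604 to 3604 CPM in nodes and 2476 to 20220 CPM in primaries, and the primary of number 3 was highest.

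Of 11 genes of epithelial to mesenchymal transition 3 fell. All 11 had a negative fitted difference, with a median of -1.08 (pigmentation genes -0.85, melanocyte lineage genes -1.03). Those that fell were Fn1, a matrix protein linked to the mesenchymal state, Twist2, a transcription factor of that state, and Cdh1, the epithelial cadherin, so the calls include genes of both states. Fn1 had 375, 2209, 255, 683 and 518 CPM in nodes 3 to 7, against 1407, 3513, 827, 2183 and 1694 CPM in the primaries. Node 4 lay above 4 of the 5 primaries, and the difference was -1.54 ± 0.27 (SE, edgeR adjusted p = 0.0258). Cdh1 fell by 1.08 ± 0.23 and Twist2 by 2.36 ± 0.44 (SE, edgeR adjusted p = 0.0434 and 0.0307), and 46.5% of Twist2 exon bases are shared with Gm29100 on the opposite strand. None of the 3 was called without pair 3, 6 or 7, with edgeR adjusted p of 0.0706 to 0.14, and Twist2 alone without pair 5. Fn1 and Cdh1 were also lost without the block (edgeR adjusted p = 0.167 and 0.129). Of the 11 genes DESeq2 and voom each called 5 lower, the random block 3 and edgeR without the block 1. Of 14 neural crest and dedifferentiation genes 1 fell (background 1.26% of all genes), the intermediate filament gene Nes. It fell by 1.99 ± 0.34 on the log2 scale (edgeR adjusted p = 0.0232). Nes was lost without pair 3, 6 or 7, with edgeR adjusted p of 0.0573 to 0.0925. Of the 14 genes DESeq2 called 1 higher and 4 lower, voom 4 lower, the random block 1 higher and 3 lower, and edgeR without the block 1 lower. Over all genes DESeq2 called 2461 higher and 1497 lower, and voom 2073 and 1301.

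Among 12 MAPK output genes, all with a negative fitted difference, Fosl1 and Etv4, transcription factors induced by this pathway, fell. Etv4 had 2.81, 3.07, 1.33, 2.12 and 2.71 CPM in nodes 3 to 7, against 8.38, 10.6, 10.1, 5.17 and 15.4 CPM in the primaries, with no overlap and a difference of -2.01 ± 0.34 (SE, edgeR adjusted p = 0.0223). Fosl1 fell by 2.90 ± 0.48 (SE, edgeR adjusted p = 0.0204), and 57.2% of its exon bases are shared with Ccdc85b on the opposite strand. The list's pair medians were -0.80, 0.20, -1.78, -0.65 and -1.56, beside melanocyte medians of 0.06, 0.32, -2.92, -0.77 and -1.32. Of 18 glycolysis and hypoxia genes Hk2, Slc2a1 and Pfkl fell, by 1.14 ± 0.19, 0.87 ± 0.17 and 1.07 ± 0.22 on the log2 scale (SE, edgeR adjusted p = 0.0204, 0.0316 and 0.042). They encode hexokinase, the glucose carrier GLUT1 and phosphofructokinase, and 10 of the 18 genes were lower in every pair, beside 10.6% of all genes. The median fitted difference of this list was -1.07, beside -0.85 for pigmentation and -1.03 for melanocyte lineage genes. The part of melanocyte RNA in these falls was not tested. Hk2, Slc2a1 and Pfkl were lost without pair 3, 5, 6 or 7 (edgeR adjusted p of 0.0502 to 0.149). Both MAPK genes were lost without pair 3, 6 or 7 (edgeR adjusted p of 0.0529 to 0.0878) and Etv4 without pair 5. DESeq2 called 13 glycolysis and hypoxia genes and 5 MAPK output genes lower, voom 8 and 3, the random block 5 and 4, and edgeR without the block 1 and 2. Over all genes, in the same order, 1497, 1301, 1268 and 526 were called lower. Hk2, Slc2a1 and Pfkl were each lost without the block and with the random block (adjusted p of 0.0636 to 0.159 in edgeR and limma).

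Gab1, an adaptor of the Met receptor, had 59.3, 59.9, 28.2, 39.3 and 46.7 CPM in nodes 3 to 7, against 109, 112, 62.6, 66.5 and 97.9 CPM in the primaries. All nodes lay below all primaries, and the difference was -0.95 ± 0.13 (SE, edgeR adjusted p = 0.0121), lost without pair 3 or 6 (edgeR adjusted p = 0.0621 and 0.0693). It was the one call among 9 Hgf and Met genes in the paired edgeR fit (background 1.26% of all genes), while voom called 2 lower and the random block 3. Beside Gab1, the median fitted difference was -0.85 for pigmentation and -1.03 for melanocyte lineage genes. Of 9 metastasis suppressor genes Arhgdib, a GTPase regulator of blood cells, was the one called in the paired edgeR fit (background 4.65% of all genes higher). DESeq2 and voom each called 2 higher. Arhgdib was higher by 1.54 ± 0.27 (SE, edgeR adjusted p = 0.0249) and lost without pair 3, 5, 6 or 7, with edgeR adjusted p up to 0.106, and without the block (edgeR adjusted p = 0.0576).

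Cell cycle genes were not called in edgeR. None of 14 DNA replication genes and none of 15 mitosis genes passed, although all 15 mitosis genes had a negative fitted difference, with a median of -0.74 and pair medians of 0.15, -0.17, -2.12, -0.47 and -0.81. Oxidative phosphorylation (20 genes), ribosomal protein (20), p53 target (13), G1 checkpoint (10) and immediate early genes (12) had 0 calls each in edgeR. At an unadjusted p under 0.05, 0 DNA replication, 2 mitosis, 5 oxidative phosphorylation, 0 ribosomal protein, 3 immediate early and 3 G1 checkpoint genes were lower, and 2 p53 targets were higher and 4 lower. DESeq2 called 0 DNA replication and 0 mitosis genes, 1 ribosomal protein gene higher, 2 oxidative phosphorylation, 2 immediate early and 3 G1 checkpoint genes lower and, of the p53 targets, 2 higher and 3 lower. Voom called 2 oxidative phosphorylation, 3 immediate early and 1 G1 checkpoint genes lower and the same numbers of p53 targets. Of all 18629 genes, 2984 were higher and 2094 lower at an unadjusted p under 0.05. Over the same genes DESeq2 called 2461 higher and 1497 lower, and voom 2073 and 1301. Red blood cell (7 genes), Schwann cell (10), mesothelium (3) and sex-linked genes (5) had 0 calls as well in edgeR. At an unadjusted p under 0.05, 2 Schwann cell genes were higher and 2 lower, and 1 mesothelium gene was higher and 1 lower. DESeq2 called 2 Schwann cell genes higher and 1 lower, voom called 2 higher, and both called 1 mesothelium gene higher and 1 lower. Trp53inp1, a p53 target, was higher in every pair, with a difference of 1.51 ± 0.36 that was not called (SE, edgeR adjusted p = 0.0645). Cdkn1a, the p53-induced cell cycle inhibitor, was lower in every pair, at -1.31 ± 0.32 (SE, edgeR adjusted p = 0.0666). In data simulated for this comparison (18266 genes) the fit found 4% of changes of log2 1, 76% of log2 2 and 100% of log2 3 or 4. The changes were put in genes of at least 5 CPM, at the same size in every pair. All genes had the same biological coefficient of variation, 0.48. Of 149 calls in the simulated data 9 were of unchanged genes. In the real data 15 of 17 keratinocyte genes, with a list median of -5.48, were not called. The simulated shares therefore do not carry over to genes that vary among pairs.

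Samples outside the pairs gave the same genes a separate reading, with no test. Node 8 (brachial) and HPN primaries 1 and 2 have no partner, and they were not used to call the genes. Of 859 genes called higher and higher in every pair and read on the shared scale, 848 (98.7%) were higher in node 8 than in both of these primaries, against 35.3% of all genes. Of 192 genes called lower and lower in every pair, 161 (83.9%) were lower in node 8 than in both, against 26.7% of all genes. On a scale shared by all HPN libraries and HP primaries, Cst6 was at 9.59 CPM in node 8 and 429 and 75.5 CPM in HPN primaries 1 and 2, and Nkd2 was at 18.9 CPM in node 8 and 172 and 106 CPM in these primaries. Spp1 was at 158 CPM in node 8, between the 192 and 36.3 CPM of these primaries. The lung metastases of numbers 3 and 4 had 21.7 and 29.9 CPM of Cst6, above every node and below every HPN primary. Node libraries 7a and 7b differed widely in Marco on this scale, at 191 CPM in 7a and 25.6 CPM in 7b.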

How the data were processed

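Directional libraries were made from total RNA of mouse melanomas (labels' protocols). The submitters' processing notes name bcl2fastq 1.8.4, STAR 2.5.3a and build mm9. Each deposited file holds raw read counts per Ensembl gene. The sources used here do not give the counting tool, its strand setting or the annotation. Summary entries that name no gene were kept out of library sizes: reads outside genes made up 13.6 to 49.3% of entries. Symbols came from GENCODE vM21 (87.45% of 37620 identifiers matched, and 1.704% of counts are in the others). Promoter sequences are RefSeq's for GRCm38.p6.

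Title numbers were read as mice. Y-linked genes and Xist gave the same sex for node and primary in 5 of 5 pairs. The correlation of deviations from the group means within a number was 0.29, -0.01, -0.05, 0.32 and 0.08 for numbers 3 to 7. Between unlike numbers it ranged from -0.37 to 0.19. Nodes 4, 5 and 7 had higher values with the primaries of numbers 5, 6 and 4, at 0.19, 0.16 and 0.14, than with their own. The labels give no animal identifiers, and p-values cover the variation among these 5 pairs only.

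Genes that passed filterByExpr (18629) were fitted in edgeR 4.0.16 (R 4.3.3) with TMM scaling, title number as block and robust quasi-likelihood dispersion, with Benjamini-Hochberg adjustment over all of them and a threshold of 0.05. Pair differences use log2 CPM with a prior count of 2. Levels are CPM with TMM scaling, not corrected for gene length. Lists (44, with 554 genes) are described by counts and medians, with no set test. The pairs and lists were chosen with earlier results of these data known. Named genes were Nme1 and Nme2, the 10 largest called rises and falls of the same sign in every pair with at least 5 CPM in the higher tissue, the same among genes in no list with at least 5 CPM in both tissues, and up to 4 genes per list by p, leaving out receptor segments, predicted and unnamed genes. Other genes, among them Klf5, Ppp1r13l, Abca12, Lrrc15, Tnfrsf11b and Bmp1, were chosen after their values were seen. Alternatives were no block, a random block over all HPN primaries and nodes, DESeq2 1.42.0, limma 3.58.1 (voom with quality weights), other size factors, other filters, node 7a or 7b alone, and each pair left out. The fit was tested on simulated data. Some genes are not reported here by name.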

Additional observations from a re-analysis of the deposited data

Results flagged for a closer look

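Of 85 groups of 5 pair differences examined for a value that stands apart, 2 had a gap to the nearest value above Dixon's limit of 0.71 of the whole range, and chance alone flags about 1 in 20 such groups. The median log2 difference of the 9 Hgf and Met genes was 1.14 in pair 7 and lay apart from the other 4 pairs, which were between -0.71 and -0.39. For Xirp2, a striated muscle protein, pair 7 was at -0.36 and the other 4 pairs between -7.72 and -6.06. In pair 7 Xirp2 had 0.0677 CPM in the node and 0.101 CPM in the primary, while the other primaries had 9.41 to 36.5 CPM.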

How the results depend on the processing

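The 1102 calls were 1832 with no replicate block, 3240 with a random replicate block over all HPN primaries and nodes, 3958 in DESeq2, 3374 in limma voom and 477 with over 1 CPM in 5 samples. Genes tested were 18629 in the main fit, 16456 with no block, 16509 with the random block and 14005 with over 1 CPM. In the same order, calls higher in nodes (867) were 1306, 1972, 2461, 2073 and 382, and calls lower (235) were 526, 1268, 1497, 1301 and 95. Calls of the same sign in all 5 pairs (1052) were 2459 with the random block, 3088 in DESeq2, 2458 in voom and 477 with over 1 CPM. List genes called (87) were 143 with no block, 169 with the random block, 229 in DESeq2 and 208 in voom. The share of calls higher in nodes was 60.9% with the random block. With a pair left out the ranges were 168 to 1830 for all calls, 159 to 1487 for higher, 9 to 343 for lower, 168 to 1818 for calls of the same sign, and 27 to 123 for list genes. Median-ratio size factors gave 1038 calls, no filter 1188, and node 7a or 7b alone 1148 and 1141. Of 108 named genes called, 27 were called with each pair left out and 26 under every alternative, and none of the 222 named genes changed sign with a call. Of the 108, the random block lost 20 and the fit with no block 12. The causes were not tested. Same-numbered samples did not deviate together in every pair, so the pairing rests on the title numbers. Depth limits the genes under 1 CPM, and 5 pairs cannot give an exact two-sided p under 0.0625. For Nme2, how reads shared with Gm20390 were counted is not stated.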
